A study of Mus musculus with 4 samples.

Results

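Distal FAIRE-positive regions that were called in both siControl libraries of EpRas cells and in neither siEtv4/5 library are described here. They were autosomal peaks of the siControl TGF-β list whose middle lay more than 2 kb from every annotated transcription start site (TSS), which overlapped a peak of the siControl untreated list by at least 1 bp and no peak of either siEtv4/5 list. There were 1702 such regions (the members) among 10354 distal regions shared by the controls, that is, 16.44% (95% Wilson interval 15.7 to 17.2%). Of the shared distal regions, 21.3% had no call with set 1 and 41.6% none with set 2. Over all 18733 distal regions of the siControl TGF-β list, 38.2% had none with set 1, 59.8% none with set 2 and 33.35% none with either. The members were chosen by the presence or absence of these calls, so the shares are a description and nothing is read from them. The 4 lists held 88442 peaks in all.

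EpRas is a derivative of EpH4 mouse mammary gland epithelial cells that carries active H-Ras, so active H-Ras was present in every group, and it is 1 cell line. The groups were siControl untreated, siControl with TGF-β (1 ng/ml TGF-beta3), and siEtv4/5 set 1 or set 2 with the same TGF-β, each set against both Etv4 and Etv5, all at day 4. Each group was represented by 1 peak list, so no replicate spread, test or p-value could be had, and all intervals cover counting error only. Biological replicates may have been combined in a list. The lists hold no RNA, so neither the knockdown nor the identity of the cells was checked. The lists held 22247 peaks (siControl untreated), 28754 (siControl TGF-β), 22516 (set 1) and 14925 (set 2), at inferred depths of 15.3, 16.3, 17.3 and 20.7 M (mega) reads. Set 2 had the greatest depth and the shortest list, and its part in the absence of the members was not tested.

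FAIRE recovers DNA that is not held by nucleosomes after formaldehyde fixation, which marks promoters, enhancers and insulators. Etv4 and Etv5 belong to the PEA3 group of ETS transcription factors, act downstream of Ras-ERK signalling, and bind short sites around the core GGAA, often beside sites for AP1, the dimer of Fos and Jun proteins. CTCF is a zinc-finger protein that binds a long site at insulators and chromatin loop anchors.

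The DNA of a few members is shown first, from the mm10 build (GRCm38), plus strand, so that the sites counted further on can be seen. ETS sites were searched as CCGGAAG or CAGGAAG and AP1 sites as TGANTCA, on both strands, and each match was counted even where it adjoined another. CTCF sites were searched with a 12-letter core that is named only. In the first 8 sequences capitals mark ETS and AP1 matches. The first 4 are the members with the most summit fragments per M reads in the weaker of their 2 controls, shown as the highest members by that measure. Their local background was high, and their fold enrichments, from 5.37 to 6.33 untreated and from 6.01 to 7.58 with TGF-β, lay below the members' medians of 7.64 and 7.91. None of them has an ETS match within the stretch printed.
Plec (chr15:76204179-76204452): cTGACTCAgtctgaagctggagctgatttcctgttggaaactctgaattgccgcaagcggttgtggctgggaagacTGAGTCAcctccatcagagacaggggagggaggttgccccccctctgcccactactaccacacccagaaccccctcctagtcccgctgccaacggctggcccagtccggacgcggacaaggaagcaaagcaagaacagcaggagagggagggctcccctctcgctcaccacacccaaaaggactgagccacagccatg
Nfib (chr4:82513254-82513410): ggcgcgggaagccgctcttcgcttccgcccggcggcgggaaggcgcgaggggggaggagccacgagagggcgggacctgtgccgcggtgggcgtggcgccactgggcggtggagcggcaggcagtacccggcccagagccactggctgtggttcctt
Sphk1 (chr11:116522195-116522378): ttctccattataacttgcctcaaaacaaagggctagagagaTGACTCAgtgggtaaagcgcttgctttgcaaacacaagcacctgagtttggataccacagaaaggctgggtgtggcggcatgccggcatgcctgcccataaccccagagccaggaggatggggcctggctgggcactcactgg
AL805899.2 (chr4:89001601-89001900): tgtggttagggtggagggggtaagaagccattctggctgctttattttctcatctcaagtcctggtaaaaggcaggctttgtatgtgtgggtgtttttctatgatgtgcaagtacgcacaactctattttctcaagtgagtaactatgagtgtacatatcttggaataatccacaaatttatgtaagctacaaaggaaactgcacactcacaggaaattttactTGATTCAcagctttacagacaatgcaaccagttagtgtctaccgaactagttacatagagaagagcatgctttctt
The next 4 are the highest of the 41 members that had an ETS and an AP1 match within 20 bp of each other. In the first of them the 2 matches adjoin, and the third holds 2 ETS matches.
Gm42906 intron (chr5:151109860-151110074): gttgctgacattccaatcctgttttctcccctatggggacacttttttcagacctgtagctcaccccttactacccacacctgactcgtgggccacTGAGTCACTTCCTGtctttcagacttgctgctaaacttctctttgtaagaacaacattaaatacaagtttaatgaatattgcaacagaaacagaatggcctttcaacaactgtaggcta
Mapk6 (chr9:75423878-75424040): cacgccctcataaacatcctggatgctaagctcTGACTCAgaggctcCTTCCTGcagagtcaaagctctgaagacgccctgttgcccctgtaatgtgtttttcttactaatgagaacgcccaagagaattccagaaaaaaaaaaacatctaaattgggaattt
Ccdc124 (chr8:70880086-70880282): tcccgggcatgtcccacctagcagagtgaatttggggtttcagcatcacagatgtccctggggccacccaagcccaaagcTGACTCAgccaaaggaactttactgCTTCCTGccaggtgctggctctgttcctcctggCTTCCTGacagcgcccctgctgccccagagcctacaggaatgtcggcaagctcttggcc
Gadd45a (chr6:67102601-67102774): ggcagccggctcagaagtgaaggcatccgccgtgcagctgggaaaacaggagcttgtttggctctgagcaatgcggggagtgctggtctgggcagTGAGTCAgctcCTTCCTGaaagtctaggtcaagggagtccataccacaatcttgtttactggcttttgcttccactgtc
The last 3 are the highest members with a CTCF match inside the region, printed because this motif was more frequent in members than in regions that stayed called, and chosen after their values were seen. Here capitals mark the CTCF match.
Smndc1 (chr19:53394695-53394876): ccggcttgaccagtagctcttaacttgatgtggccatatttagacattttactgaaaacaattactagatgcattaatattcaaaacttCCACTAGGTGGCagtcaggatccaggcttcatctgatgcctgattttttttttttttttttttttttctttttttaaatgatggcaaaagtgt
Ptpn3 (chr4:57275194-57275347): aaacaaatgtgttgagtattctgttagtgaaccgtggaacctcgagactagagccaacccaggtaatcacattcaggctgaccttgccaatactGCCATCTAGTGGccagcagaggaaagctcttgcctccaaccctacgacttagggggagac
Sh3pxd2a (chr19:47356700-47356870): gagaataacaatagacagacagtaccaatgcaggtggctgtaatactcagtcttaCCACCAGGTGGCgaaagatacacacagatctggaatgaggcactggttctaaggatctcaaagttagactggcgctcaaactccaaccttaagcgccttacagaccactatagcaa

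The first 4 sequences lie in an intron of Plec (plectin, which links intermediate filaments), in an intron of Nfib (a nuclear factor I transcription factor), 8.64 kb upstream of Sphk1 (sphingosine kinase, which makes sphingosine 1-phosphate) and in an intron of the annotated gene AL805899.2. The stretch of AL805899.2 is the 300 bp around the summit of a region of 310 bp. Those with ETS and AP1 matches close together lie in an intron of Gm42906, 17.6 kb downstream of a Stard13 start, and upstream of Mapk6 (an atypical MAP kinase), Ccdc124 and Gadd45a (a DNA damage and stress gene) by 14, 6.25 and 65.3 kb. Those with a CTCF match lie 4.21 kb upstream of Smndc1 (a splicing factor) and in introns of Ptpn3 (a tyrosine phosphatase) and Sh3pxd2a (the invadopodium scaffold Tks5). The middle of each of these regions lay outside exons.

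The members were weakly accessible in both controls. The strength of a region is given as the number of fragments at its summit, recovered from the deposited fold enrichment and −log10 p-value. In siControl with TGF-β the members had between 11 and 46 summit fragments with a median of 20, against a median of 29 for the 5539 shared distal regions that were called with both siRNA sets (the kept regions). In the untreated control the members had between 10 and 38 with a median of 18, and the kept regions had a median of 23. The median fold enrichment of the members was 7.91 with TGF-β and 7.64 without, and that of the kept regions was 9.46 and 8.31. Members were also narrower, with a median width of 160 bp against 248 bp. The ranges of the groups overlapped widely, since the weakest kept region had 13 summit fragments with TGF-β.

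The median distance between a member's untreated and TGF-β summit was 24 bp (range 0 to 329 bp), which the overlap rule itself limits. Within 10 bp of each other were the summits of 415 members (24.4%), and 1367 of the 1702 members (80.3%) had summits within 50 bp of each other, as did 73.2% of the kept regions. The overlap covered a median of 96.9% of the shorter peak. Only 6 members overlapped the untreated peak by under 50 bp, the least being 1 bp at a region near Kpnb1. Of the shared distal regions that are no members, the least overlap with an siRNA peak was 24 bp, near Igf2bp2.

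**Figure D1:**
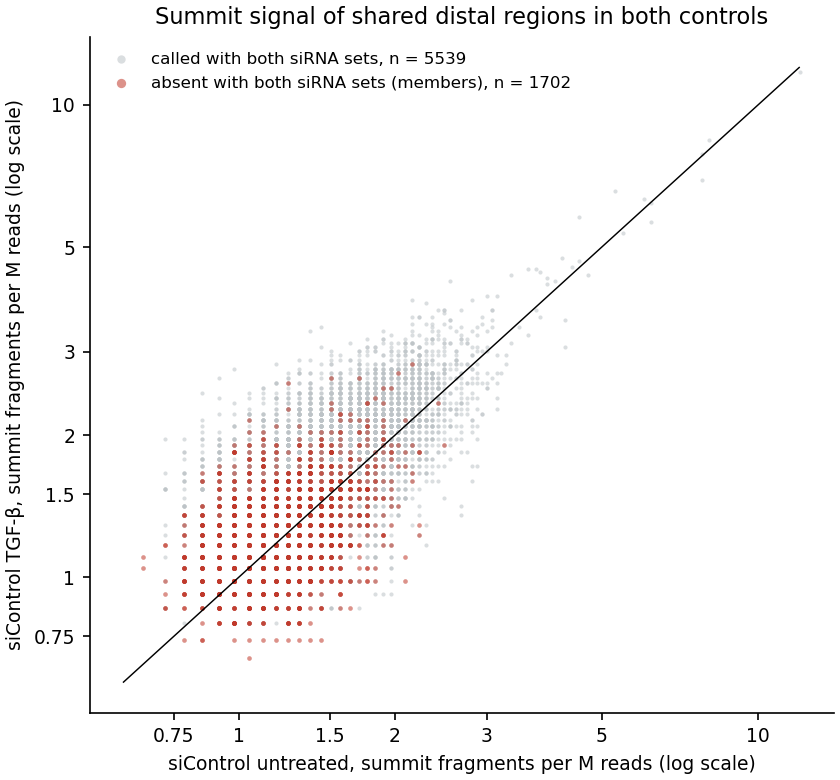
Summit fragments per M reads in siControl untreated (horizontal, log scale) and siControl TGF-β (vertical, log scale) for 1702 members (red) and 5539 regions called with both siRNA sets (grey), 1 point a region, with the line of equality. Members gather at the low end of both axes on both sides of the line, and the strongest member reaches 2.83 with TGF-β where the strongest kept region reaches 11.7.

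The members' median was 1.23 summit fragments per M reads with TGF-β and 1.18 untreated, with a median log2 difference (TGF-β minus untreated) of 0.05. The kept regions had medians of 1.78 and 1.5 and a median log2 difference of 0.23. Regions absent with set 1 only lay close to the members, at 0.07, and those absent with set 2 only had 0.16. TGF-β gave the higher value in 929 members (54.6%, interval 52.2 to 56.9%) and in 73.6% of kept regions (72.4 to 74.7%). Only 3 members were more than 2-fold apart. As both controls had to call a member, and the siControl TGF-β list was longer, these shares depend on the calling limits as well.

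Absence with both siRNA sets became rarer with strength, which is a description since the calls chose the members. Among shared distal regions with under 15 summit fragments in siControl with TGF-β, 48.6% were members. This share was 36.8% at 15 to 19 fragments, 21.9% at 20 to 24, 9.41% at 25 to 29 and 4.99% at 30 to 34. Of 1652 regions with 35 or more fragments, 25 were members (1.51%, interval 1.03 to 2.22%). Few members were strong in both controls. 89 members (5.23%) had 25 or more fragments in each, as had 37.7% of the kept regions, and 14 members had 30 or more in each.

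**Figure D2:**
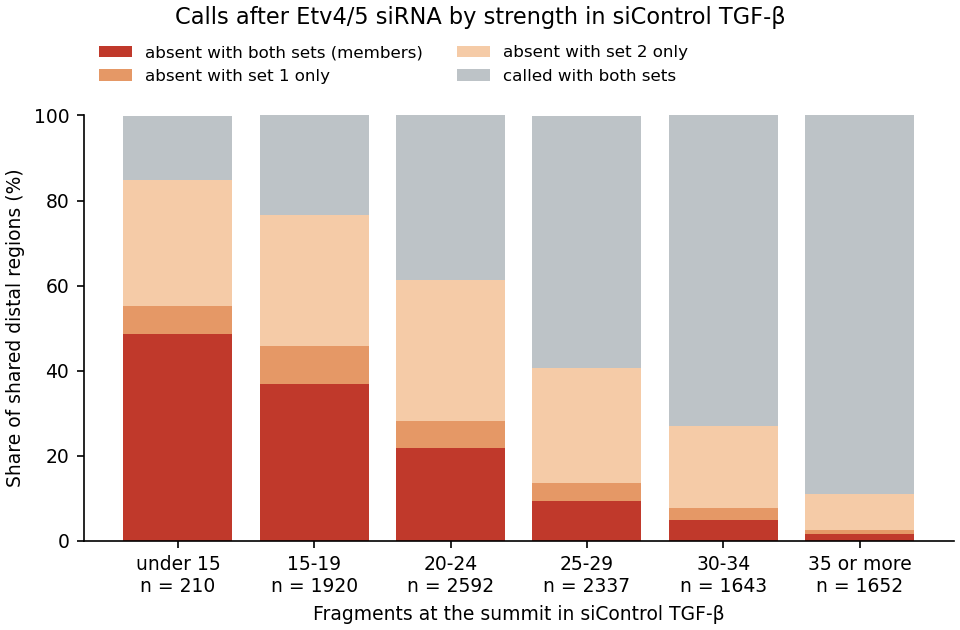
Share of the shared distal regions (vertical, %) that were absent with both siRNA sets, with 1 set only or called with both, in 6 classes of summit fragments in siControl TGF-β (horizontal, with the number of regions). The members' share falls from 48.6% in the weakest class to 1.51% in the strongest, while the share absent with set 2 only stays between 27.1 and 33.2% up to 29 fragments.

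The weakest summit the caller could have reported limits the signal that a member can have kept. At the background floor it was 11 fragments in either siRNA library, and over the members, with the local background of siControl with TGF-β scaled to depth, its median was 12 with set 1 and 13 with set 2. A count 1 fragment below this weakest summit was divided by depth and by the member's own TGF-β value. This relative limit had a median of 0.554 with set 1 (range 0.288 to 0.942) and 0.479 with set 2 (0.241 to 0.837). In 525 members (30.8%, interval 28.7 to 33.1%) the relative limit was at or below 0.5 with both sets. The limit is not strict, since a call also needs a stretch of signal as long as a fragment. In both siRNA lists 5% of called summits lay within 3 fragments of the lowest callable summit. The median call lay 9 fragments above it with set 1 and 8 with set 2.

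The 10 members that were highest in the weaker control, by fragments per M reads, are described next. In the Nfib intron the untreated library had 33 summit fragments and the TGF-β library 46, the most of any member, and the lowest callable summit was 22 with set 1 and 24 with set 2. The AL805899.2 intron had 31 and 44 fragments, and an intron of Ttc39b had 30 and 41. These 3 regions lie between 82 and 90 Mb of chromosome 4, where the local background was high. The Plec intron had 37 fragments untreated and 38 with TGF-β, against limits of 22 and 24. The region upstream of Sphk1, where 46.4% of the 500 bp are annotated repeat, had 32 and 35, and a region 6.75 kb upstream of Shf, which codes for an SH2-domain adapter, had 29 and 41. The siControl values of Plec and Sphk1 were close in both libraries, while those of Nfib and Shf were higher with TGF-β.

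The other 4 had the lower signal per M reads with TGF-β, as had Plec (2.42 untreated and 2.34 with TGF-β). An intron of Bcl2l1, which codes for the anti-apoptotic Bcl-xL, had 38 fragments untreated and 31 with TGF-β. An intron of Tgm2 (transglutaminase 2, a protein crosslinking enzyme) had 33 and 31, and one of Rbfox2 (a splicing factor) had 31 and 31. A region in an exon of Itpripl1 had 30 and 31. None of the 10 regions held both an ETS and an AP1 match except that of AL805899.2, which had 1 of each within 500 bp, and Itpripl1, Tgm2 and Shf held an ETS match alone.

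AP1 sites were less frequent in the members than in kept regions. In 500 bp centred on the region, 739 of 1702 members (43.4%, interval 41.1 to 45.8%) held an AP1 match, against 67.8% (66.6 to 69.1%) of kept regions and 60.3% of all shared distal regions. Windows 5 kb to either side of the members, leaving out those that met a peak, held one in 13.9%. Regions absent with 1 set only lay between the members and the kept regions, at 50% for set 1 and 57.2% for set 2. A single AP1 match was present in 34.1% of members and 2 in 7.93%, against 43.3 and 19.9% of kept regions.

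ETS sites were also less frequent in the members, with a smaller gap. A match was present in 419 members (24.6%, interval 22.6 to 26.7%), in 31% of kept regions (29.8 to 32.2%), in 28.7% of all shared distal regions and in 18.8% of the members' flanks. Most of these were CAGGAAG, which 22.4% of members held, while 2.94% held CCGGAAG. ETS and AP1 matches occurred together in 10.7% of members and 21% of kept regions. They lay within 20 bp in 41 members (2.41%, interval 1.78 to 3.25%) and in 4.6% of kept regions, and in 0.452% of the members' flanks.

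CTCF sites went the other way. A match was present in 228 of 1702 members (interval 11.9 to 15.1%), in 4.66% of kept regions (4.13 to 5.24%), in 7.24% of all shared distal regions and in 0.422% of the members' flanks. Regions absent with set 1 only held one in 12.3% and those absent with set 2 only in 7.75%. Of the 750 shared distal regions with a CTCF match, 228 were members (30.4%, interval 27.2 to 33.8%), against 15.3% of those without. In 190 of the 228 there was no AP1 match. In 570 members (33.5%) there was no match to any of the 3 motifs, against 19.6% of kept regions.

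**Figure D3:**
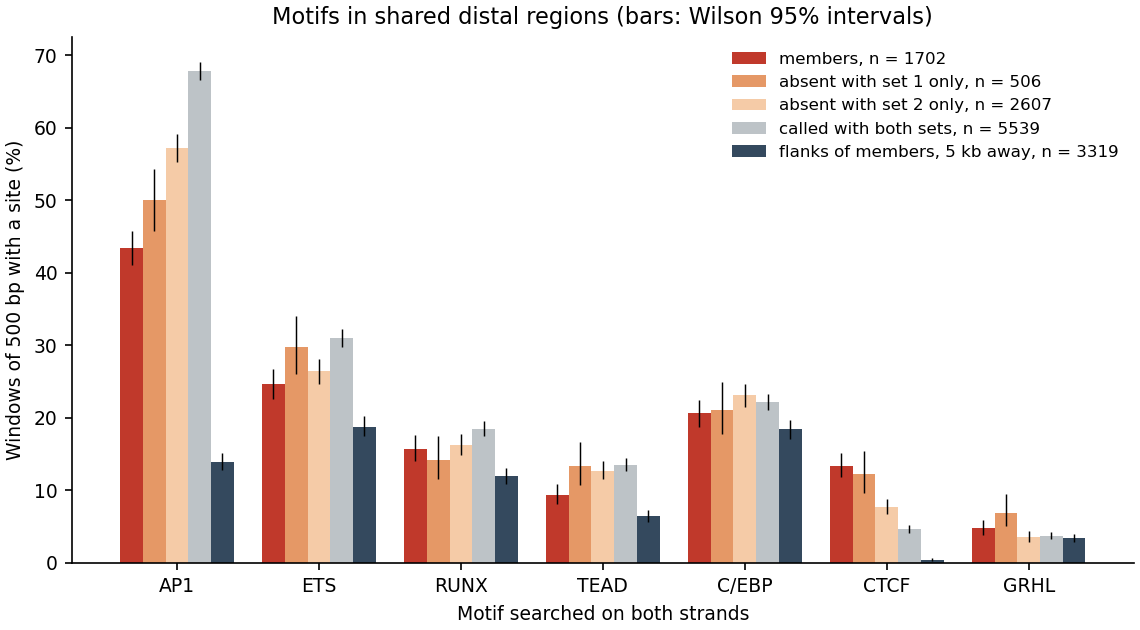
Share of 500 bp windows (vertical, %) with a match to each of 7 motifs (horizontal) in members, regions absent with 1 siRNA set only, regions called with both sets and windows 5 kb from members, with 95% Wilson intervals. AP1 rises from 43.4% in members to 67.8% in regions called with both sets, and CTCF falls from 228 of 1702 members to 4.66%.

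Strength differed between the groups and moved with these motifs, so the kept regions were also weighted to the members' distribution of summit fragments. Weighted by the TGF-β library, 57.1% of kept regions held an AP1 match, 29.9% an ETS match and 9.84% a CTCF match. Weighted by the lower of the 2 controls, the shares were 65.5, 30 and 6.24%. Unweighted they were 67.8, 31 and 4.66%, so either weighting brought the kept regions nearer to the members, more so that by the TGF-β library. For all 3 motifs the gap to the members kept its direction under both weightings. It did so in every single class for CTCF, but not for AP1 or ETS. Under 15 fragments an AP1 match was present in 50% of 102 members (40.5 to 59.5%) and 43.8% of 32 kept regions (28.2 to 60.7%). At 30 to 34 fragments an ETS match was present in 35.4% of 82 members (25.9 to 46.2%) and 32.4% of kept regions, and at 35 or more in 36% of 25 members (20.2 to 55.5%) and 31.6% of kept regions. Within the class of 15 to 19 fragments, CTCF matches were present in 16.9% of members (14.3 to 19.8%) and 69 of 448 kept regions (12.4 to 19%), whose intervals overlap. At 20 to 24 fragments the shares were 13.6% (11 to 16.6%) and 7.19% (5.74 to 8.95%). For AP1 the shares in the latter class were 40% (36.1 to 44.1%) and 59.8% (56.7 to 62.8%). What part strength has in the CTCF gap was not tested.

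Matches clustered at the summits. Within 50 bp of the TGF-β summit, 29.7% of members held an AP1 match and 48.4% of kept regions did. A CTCF match lay that close in 206 of the 228 members that held one, which is 12.1% of members, against 3.68% of kept regions. An ETS match lay that close in 6.76% of members and 9.84% of kept regions, and along the members the ETS matches formed no sharp peak.

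**Figure D4:**
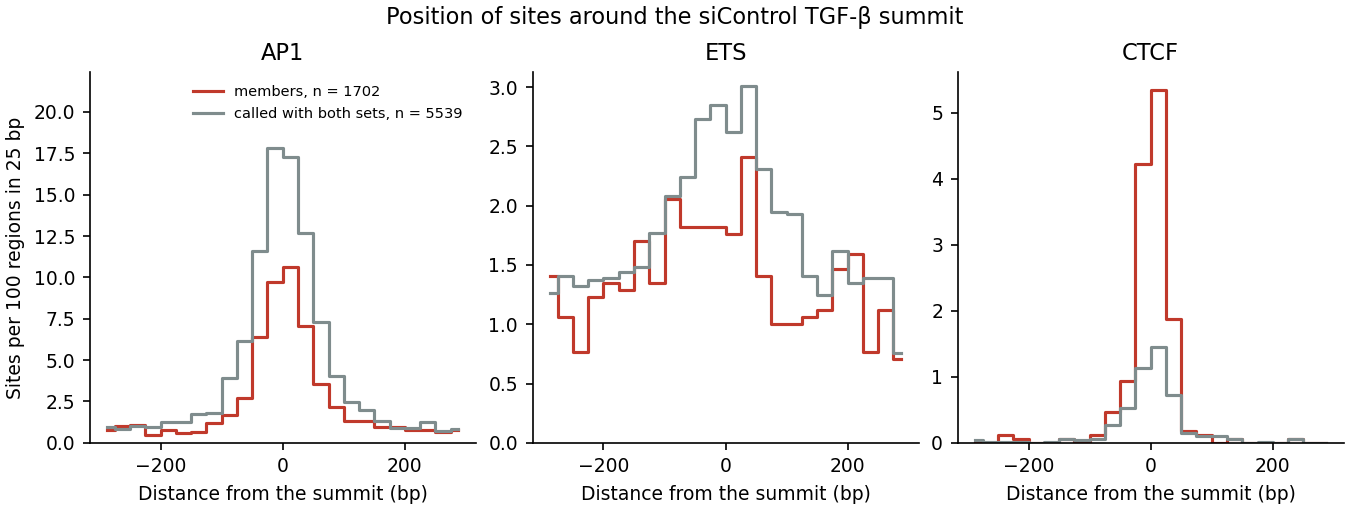
Number of motif matches per 100 regions in bins of 25 bp (vertical) by distance from the siControl TGF-β summit in bp (horizontal) for members (red) and regions called with both sets (grey), in 1 panel each for AP1, ETS and CTCF, with separate vertical scales. AP1 and CTCF matches gather at the summit in both groups, AP1 more in the regions called with both sets and CTCF more in the members, while ETS matches spread more evenly.

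Of the other motifs, RUNX matches (TGTGGTT) were present in 15.7% of members and 18.5% of kept regions. TEAD matches (ACATTCC) were present in 9.4% of members (interval 8.1 to 10.9%) and 13.5% of kept regions (12.7 to 14.5%). C/EBP matches (TTGCNNAA) were present in 20.6% of members (interval 18.7 to 22.5%) and 22.2% of kept regions (21.1 to 23.3%), which overlap. GRHL matches (AACNGGTT), the site of epithelial Grainyhead-like factors, were present in 4.76% (3.85 to 5.88%) and 3.74% (3.27 to 4.27%). The members' windows had a median GC content of 46% and 11% of bases in annotated repeats, against 47.4 and 9.6% in kept regions. Members with an AP1 match had the higher signal with TGF-β in 59.5% of cases (56 to 63%), those without one in 50.8% (47.6 to 53.9%), and those with a CTCF match in 50.4% (44 to 56.9%).

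The members' positions were close to those of the kept regions. 845 lay in introns (49.6%), 784 between genes (46.1%) and 73 had their middle in an exon (4.29%), against 50.6, 46.2 and 3.23% of the kept regions. Their median distance to a TSS was 14821 bp, and that of the kept regions was 14908 bp. They were scattered, with a median of 288 kb to the nearest other member, and 55 members (3.23%) had another within 10 kb. A peak of set 1 lay within 500 bp of 74 members (4.35%) and a peak of set 2 within 500 bp of 50 (2.94%). The member nearest to a TSS lay 2005 bp from one, at Plec, and the nearest region just inside the limit lay at 1999 bp, near Rhbdf2, with 23 and 17 fragments in the untreated and TGF-β libraries.

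By chromosome the members' share of the shared distal regions ranged from 12.5% on chromosome 12 (interval 9.53 to 16.1%) to 21.4% on chromosome 13 (17.9 to 25.3%). Broad changes of background were looked at in windows of 5 Mb with 8 or more kept regions, using only the kept regions. Windows with fewer were left out. Those used held 1312 members, which were 15.3% of their 8585 shared distal regions. Over 286 windows the local background relative to the library floor differed from that of siControl with TGF-β by a median log2 of -0.05 untreated, -0.10 with set 1 and -0.18 with set 2. In the windows at 80 to 85 and 85 to 90 Mb of chromosome 4 that hold the Nfib, Ttc39b and AL805899.2 regions, it was -0.23 and -0.32 with set 1 and -0.45 and -0.57 with set 2, and 0.07 and -0.02 untreated. The members' share there was 14 of 105 shared distal regions. At 90 to 95 Mb of chromosome 13 the difference with set 2 was -0.52, and 13 of 33 shared distal regions were members. In the 72 windows where the background with set 2 was lowest, 15.5% of shared distal regions were members (14 to 17%), and in the 72 where it was highest, 14.2% (12.7 to 15.8%). These background values share the siControl TGF-β library with the calls, and their part in single regions was not tested.

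The members were nearest to 1599 genes of any type, 1505 of them with 1 member. Only 9 genes had 3 members and none had more. Among the 9 were Bmf (a pro-apoptotic BH3-only protein), Gfod1, Nhsl1 and Rps23 (a ribosomal protein), and 5 non-coding or unnamed genes (Gm37788, Gm48612, Gm48703, Gm6116 and 5830428M24Rik). The shared distal regions nearest to each gene numbered 3 at Rps23, Gm48612 and Gm48703, 4 at Bmf, 6 at Gfod1 and 5 at the rest. The 3 regions nearest to Rps23 are spread over 112 kb, and those at 70.2 and 119 kb from its start lie in introns of Atg10. All 3 lie in the window at 90 to 95 Mb of chromosome 13, where the background difference with set 2 was -0.52. At Bmf all 3 members lay in introns, at 5.08, 8.7 and 12.9 kb from the most upstream start. They had 32, 29 and 25 fragments untreated and 30, 30 and 24 with TGF-β. The next region downstream was called in all 4 libraries, with 24 and 25 fragments in the untreated and TGF-β controls and 20 and 26 in sets 1 and 2. The promoter of Bmf was also called in all 4.

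Lists of genes of the epithelial-mesenchymal transition and of Ras and TGF-β signalling were read against the share of 16.44%. Over all lists, 23 of 165 shared distal regions nearest to a listed gene were members (13.9%, interval 9.47 to 20%). The highest shares were at genes of mesenchymal markers and the cytoskeleton, with 4 of 9 (44.4%, interval 18.9 to 73.3%), and at ETS genes, with 5 of 12 (41.7%, 19.3 to 68%). Both rest on few regions, and the lists were among 11. Ras-ERK feedback genes had 6 of 31 (19.4%), among them the regions of Etv4 and Etv5, which are also counted under the ETS genes. AP1 genes had 1 of 7. Matrix proteins had 3 of 20, matrix proteases and their inhibitors 2 of 16, the TGF-β pathway 2 of 22, integrins 1 of 16 and epithelial junction genes 1 of 22. Transcription factors of the transition had 0 of 6 and the YAP-TEAD pathway 0 of 9. Each region was counted only for the gene of its nearest TSS, whatever the gene type. This TSS was that of a protein-coding gene in 787 members, so regions nearer to a non-coding start were not counted for a listed gene. For example, a member with Wwtr1 as its nearest protein-coding gene counted for Gm16016, and 1 with Jun counted for Junos.

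By nearest TSS, members were assigned to both genes that the siRNAs target. A region 21.4 kb downstream of the Etv4 start, in an exon of the neighbouring gene Dhx8 (an RNA helicase), had 24 fragments untreated and 17 with TGF-β. In Etv5 an intronic region 7.46 kb downstream of the nearest start had 21 and 17 and held 1 ETS match and no AP1 match. Both had the lower signal with TGF-β. The promoter of Etv5 was called in all 4 libraries, with 29 and 37 fragments in the untreated and TGF-β controls and 34 and 31 in sets 1 and 2. The other ETS genes were Elf1, Elk4, with 16 and 19 fragments in an intron of Gm29103 that lies 12.4 kb upstream of it, and Ets1, with 23 and 25 fragments 2.85 kb upstream of a start. At the Elk4 region 72.8% of the 500 bp are annotated repeat.

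Among ligands and feedback genes of the Ras-ERK pathway, a region 28.4 kb upstream of Areg (amphiregulin, an EGF receptor ligand) had 27 fragments untreated and 24 with TGF-β and held 1 ETS and 1 AP1 match. An intron of Dusp4, a MAP kinase phosphatase, had 20 and 24. Besides Etv4 and Etv5, the others were Egr1, an immediate early transcription factor, and Tgfa, another ligand of the EGF receptor. At Junb, an AP1 subunit, a region 2.54 kb upstream had 27 and 38. Its local background was high and put the limits at 27 with set 1 and 28 with set 2. The Areg value was lower and the Junb value higher with TGF-β.

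Of the TGF-β pathway, an intron of Pmepa1, a target of TGF-β that limits Smad signalling, had 34 fragments untreated and 30 with TGF-β, at a high local background that put the limits at 26 and 28. An intron of Tgfbr3, which codes for the co-receptor betaglycan, had 16 and 22. The relative limits of Pmepa1 were 0.785 with set 1 and 0.709 with set 2, nearer to the control signal than at most members.

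At mesenchymal and cytoskeletal genes, an intron of Acta2 (smooth muscle actin) had 21 and 21 fragments, and a region upstream of Tpm2 (a tropomyosin) had 24 and 21. Near Fscn1 (fascin, which bundles actin) a region in an intron of Rnf216 had 16 untreated and 24 with TGF-β, with 1 ETS and 1 AP1 match. An intron of Pdlim7, a cytoskeletal adapter, had 26 and 33. Per M reads, the signal was higher with TGF-β at Fscn1 and Pdlim7 and lower at Acta2 and Tpm2.

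Among matrix genes, an intron of Adamts1, a secreted metalloprotease, had 23 and 38 fragments. Its relative limit was 0.397 with set 1 and 0.352 with set 2. The region 8.94 kb upstream of Mmp2 (gelatinase A, which degrades basement membrane collagen), at chr8:92818238-92818455, had 17 fragments untreated and 25 with TGF-β, with a fold enrichment of 8.8 and 12.1, and held 1 ETS and 1 AP1 match. Its relative limits were 0.377 and 0.315. Of its neighbours, a region at 20.3 kb downstream of the start was called in all 4 libraries, and one at 28 kb in all but set 2. A region 30 kb downstream of the start of Sparc, which codes for a collagen-binding matrix protein, had 28 and 21. Another matrix protein gene with a member was Fbln2, a basement membrane fibulin. Single members lay at Itgb1, in an intron with 16 and 26 fragments, and upstream of the epithelial keratin Krt19, with 21 and 18.

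**Figure D5:**
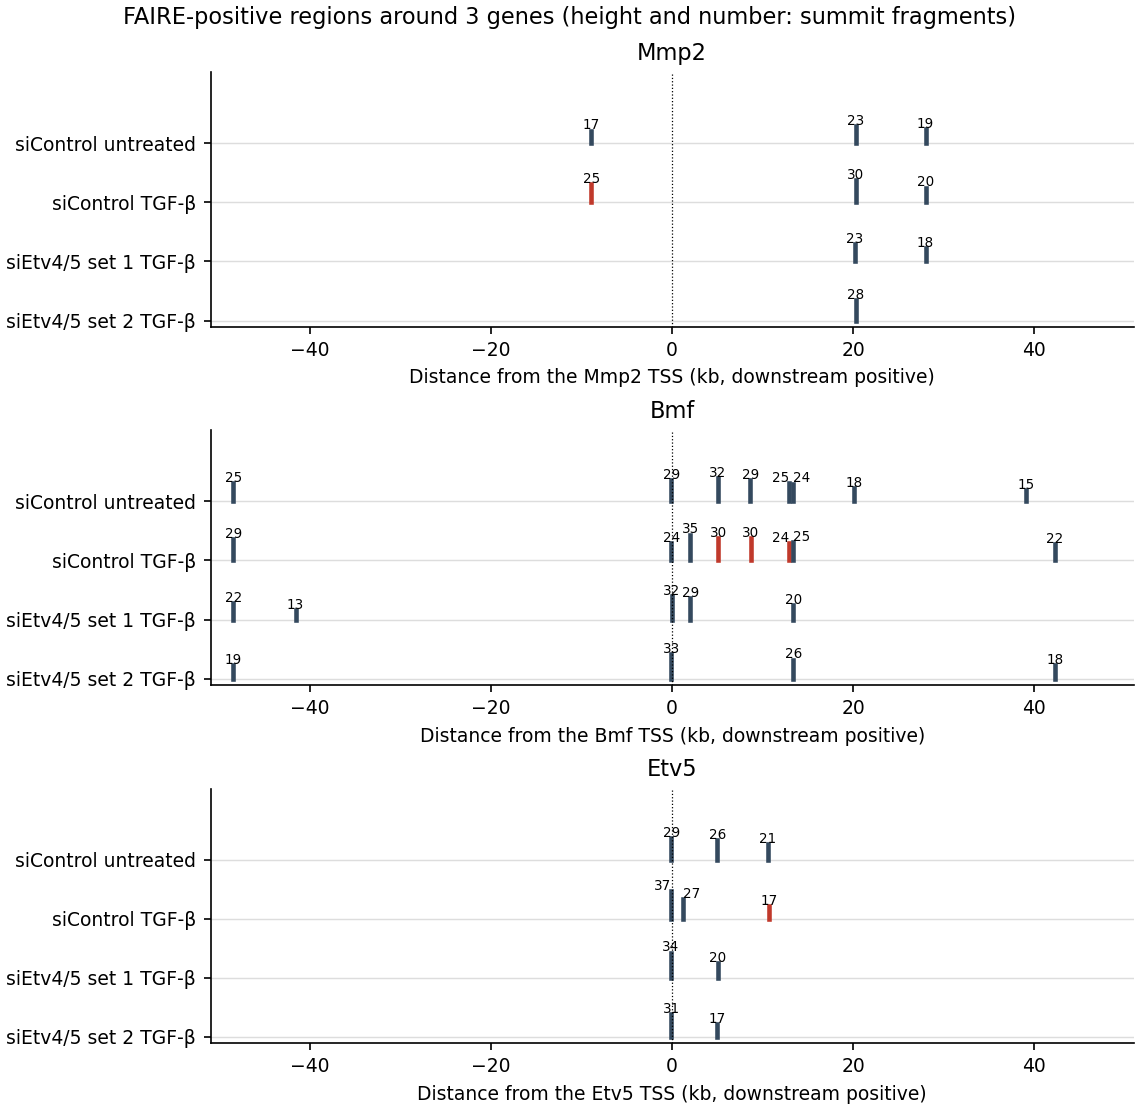
FAIRE-positive regions within 50 kb of Mmp2, Bmf and Etv5 by distance in kb from the most upstream TSS (horizontal, downstream positive) in the 4 libraries (rows). Bar height and number give the summit fragments, and red marks members: 1 at Mmp2 with 25 fragments, 3 at Bmf with 24 to 30 and 1 at Etv5 with 17, each beside regions called with siEtv4/5.

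No member lay at Mmp13, a collagenase gene. A region 32.3 kb upstream of it, at chr9:7240142-7240329, had 17 fragments untreated and 26 with TGF-β and was called with neither siRNA set. It is not a member because its middle lies 1857 bp from the start of the processed pseudogene Gm47741. Of the nearer regions of siControl with TGF-β, that at 13.8 kb upstream was called in all 4 libraries. That at 8.97 kb was called neither untreated nor with either siRNA set.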

How the data were processed

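FAIRE-seq of EpRas cells was read from 4 deposited peak lists, 1 for each group, and groups were taken from the sample labels. Per the submitters' processing notes, reads were mapped to mm10 with Bowtie and peaks were called with MACS2 2.1.0. Per the study's methods the authors trimmed reads to 36 bp and used a q-value limit of 0.0001. The deposited lists give for each peak the authors' fold enrichment (a ratio of summit signal to local background), 2 values at the summit on the −log10 scale (p-value and q-value), and a whole-number score of 10 times the latter that was not used as a measurement.

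Summit fragments and local background were solved from the fold enrichment, with the caller's pseudocount of 1, and the Poisson −log10 p-value, and came out whole within 0.05 in 100% of peaks. Absence means no call at the authors' limit and not absence of signal. Depth was inferred from the background floor, the fragment length and an assumed mappable genome of 1.87 Gb. The lowest callable summit in an siRNA list was the smallest count that reached its lowest −log10 p-value. Relative limits used a count 1 fragment lower.

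Distance was measured from the middle of a peak to the starts of basic GENCODE transcripts (vM21). Motifs were searched in 500 bp around the middle. Named regions were the 10 highest by the lower control per M reads, up to 8 with ETS and AP1 matches within 20 bp, up to 20 nearest to a gene of a list, and those of genes with 3 or more. Members and lists were chosen with earlier results of these data known. A region that this rule names is not reported here. With 1 list for each group, no test was run. Shares have 95% Wilson intervals.

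Alternatives changed the overlap, the distance, the q-value limit, the list length, the starting list, the motif letters and window, and the limit. Python 3.11.15 was used with numpy 2.4.6, scipy 1.17.1, pandas 2.3.3 and pyfaidx 0.9.0.4, and the scripts were tested on simulated data.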

Additional observations from a re-analysis of the deposited data

How the results depend on the processing

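No paired analysis was possible because each group holds 1 list, and for the same reason no replicate could be left out. Of 50 values under alternatives, 38 stayed within the limits of the original. For the number of members these limits were a factor of 1.5. The values were counts, medians and shares, so they had no direction that could reverse. With every list cut to its strongest 14925 peaks, there were 535 members, 11.3% of the shared distal regions, with a median of 25 summit fragments and an ETS match in 29%. With an siRNA peak within 500 bp counted as present, the share was 15.6%. ETS and AP1 shares of members were 12.6 and 37.3% in 200 bp around the summit (kept regions 17.5 and 61.4%), 21.8 and 40.1% without repeat bases (27.8 and 65%), and 7.76 and 25.1% with a flanking base required (10.6 and 42.9%), so the members stayed lower in each. With the median summit of siRNA peaks in the same class of local background as the limit, chosen after seeing the data, 62% of members were above the depth-scaled limit of both sets in siControl with TGF-β. A wider transcript set, also chosen after seeing the data, gave 1620 members. Depth limits all of this, since a summit of fewer than about 11 fragments could not be called.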
